A study of Mus musculus with 9 samples.

Results

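Toll-like receptors (TLRs) and Cd14 are the sensors by which macrophages detect microbial products, and here their mRNAs were measured in material bound to Roquin in LPS-treated macrophages. The members were the rows of the deposited gene table whose symbol was Tlr1, Tlr2, Tlr3, Tlr4, Tlr6, Tlr7, Tlr8, Tlr9, Tlr13 or Cd14, and all 10 were found among 20467 genes listed. The cells were RAW264.7, an established mouse macrophage line, and every one of the 9 libraries came from cells given lipopolysaccharide (LPS) at 100 ng/ml for 2 h, so there was no unstimulated group. The 3 Roquin IP libraries held RNA recovered with rabbit polyclonal antibodies to Roquin bound to protein A/G beads. The 3 control IP libraries held RNA recovered with the beads but no antibody, and so were not a control for the antibody itself. The 3 input libraries held RNA of the lysate before any IP, and the design text calls the replicates of each group biological.

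TLRs are membrane receptors that bind microbial lipids, proteins or nucleic acids and signal through cytoplasmic adaptors to NF-kB, MAP kinases and interferon regulatory factors. TLR1, TLR2, TLR4 and TLR6 act mainly at the cell surface, TLR3, TLR7, TLR8, TLR9 and TLR13 act in endosomes on nucleic acids, and CD14 hands LPS to the complex of TLR4 with its partner MD-2 (the product of Ly96). Roquin is an RNA-binding protein that recognises short stem-loops in 3′ UTRs, among them the constitutive decay element (CDE) first described in the mRNA of Tnf, a target gene of TLR signalling. Setting Roquin IP against control IP therefore asks which mRNAs associate with Roquin, and for these genes whether the mRNAs of the sensors do so beside those of their target genes.

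The sequences below show the closest matches to a CDE in the members' 3′ UTRs, next to CDEs of 2 mRNAs recovered with Roquin. For each gene the longest 3′ UTR annotated by GENCODE vM21 (GRCm38) was read on the strand of the transcript. The pattern searched was TTCNNNGAA, a stem of 3 base pairs that closes a loop of 3 bases, and the stricter form was that pattern with a pyrimidine, a purine and a pyrimidine in the loop. The pattern reads the same on both strands, whereas the loop order was read on the transcript strand alone. Capitals mark the 9 bases of the pattern, and all sequences run 5′ to 3′.
Tlr3, chr8:45396075-45396103, minus strand: aagtctaaagTTCTGGGAAagtctctaaa
Tlr7, chrX:167304941-167304969, minus strand: tgtaccagagTTCAATGAAataaaagccc
Tnf, chr17:35199578-35199606, minus strand: cagacatgttTTCTGTGAAaacggagctg
Nfkbid, first site, chr7:30428395-30428423, plus strand: tctaggtgatTTCTGTGAAatcgagccca
Nfkbid, second site, chr7:30428423-30428451, plus strand: acttgattgtTTCTGTGAAacactctaga

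The Tnf and Nfkbid sites carry the loop TGT and so have the stricter form, whereas the loops of Tlr3 (TGG) and Tlr7 (AAT) do not. The stricter form was found in 0 of the 10 member 3′ UTRs, against 1130 of the 21022 genes with an annotated 3′ UTR (5.38%). The loose pattern was found in 2 of 10, against 33.9% of all these genes. Member 3′ UTRs were short in most cases, with 58 bases in Tlr8, 148 in Tlr2, 166 in Tlr1, 233 in Cd14, 273 in Tlr9, 407 in Tlr7, 859 in Tlr13, 1111 in Tlr6, 1321 in Tlr4 and 1496 in Tlr3, against a median of 961 over all genes. Among the 13091 genes with a 3′ UTR within the members' range of lengths, 2.4% held the stricter form and 18.6% the loose one. The pentamer ATTTA, the core of AU-rich elements read by other mRNA decay factors, occurred in 4 of 10 members, with 5 copies in Tlr3, 2 in Tlr4 and 1 each in Tlr7 and Cd14, against 65.2% of all genes and 50.9% of those in the same range of lengths. The last column of the authors' deposited table gave all 10 members as having no predicted CDE, as it did for 99.1% of the genes listed. A match is a description of the letters in these windows and not a binding site.

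The Roquin IP libraries held 3547517, 12975767 and 12898468 reads. Control IP had 2929537, 4180549 and 8466096 reads and input 2122288, 2055795 and 1799390 reads. Tnf took 17.6 to 27.2% of all reads from Roquin IP, against 0.143 to 0.262% for control IP and 0.201 to 0.516% for input. Lars2 took 15.0 to 23.9% of the Roquin IP reads, 28.6 to 41.5% of those of control IP and 32.5 to 41.0% of those of input. Because these 2 genes took such unequal shares, CPM below means reads per 1e+06 after TMM scaling, a scaling set by the bulk of the genes. The macrophage list held 10 symbols, 2 of them for the same gene, and 9 were listed and detected. Their summed levels were 682 to 1202 CPM in Roquin IP, 480 to 898 CPM in control IP and 750.0 to 1172 CPM in input. Of 5 T cell markers 2 were detected, and Cd3e, Cd3g and Cd2 were at 0 in all 9 libraries. Of 4 B cell markers 1 was detected, with a summed count of 1, in input. Ms4a1 and Pax5 were at 0 throughout. The summed lists for neutrophils, fibroblasts, epithelium and endothelium stayed at or below 1.22 CPM in every library. The summed T cell list, with Lck, reached 10.9 CPM and the dendritic cell list 5.86 CPM at most.

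The members took a small share of the reads, and Cd14 and Tlr2 made up most of it. Together they held 0.0744, 0.0804 and 0.0708% of all Roquin IP reads, 0.105, 0.129 and 0.125% of the control IP reads, and 0.130, 0.110 and 0.0821% of the input reads. These shares are of all reads, Tnf and Lars2 included, and the Roquin IP libraries were below all 6 others. Of the member reads, Cd14 supplied 60.5, 67.5 and 67.6% for Roquin IP, 67.8, 75.4 and 71.5% for control IP, and 42.8, 65.8 and 60.7% for input. The 5 endosomal receptors together supplied 5.68, 2.52 and 3.66% for Roquin IP, 3.68, 2.03 and 3.15% for control IP, and 10.6, 5.48 and 7.45% for input.

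Levels were compared between genes per kb of the longest annotated transcript. In the input, which stands for the mRNA of the cells, Cd14 averaged 307 ± 45.8 CPM per kb and Tlr2 95.7 ± 55.2 CPM per kb (SD, n = 3). Tlr7, the receptor for single-stranded RNA, followed at 15.2 ± 9.27 CPM per kb. Tlr1, which pairs with TLR2, averaged 6.62 ± 2.94 CPM per kb, and Tlr4, the LPS receptor, 4.93 ± 1.61 CPM per kb. Tlr9, the receptor for unmethylated CpG DNA, averaged 2.50 ± 1.10, Tlr6, the other partner of TLR2, 2.29 ± 1.08, and Tlr13, which reads bacterial ribosomal RNA in the mouse, 1.38 ± 0.276 CPM per kb. In this order neighbours did not overlap between Cd14 and Tlr2, Tlr2 and Tlr7, Tlr7 and Tlr1, Tlr4 and Tlr9, and Tlr13 and Tlr3, whereas the ranges of Tlr1 and Tlr4, of Tlr9 and Tlr6, of Tlr6 and Tlr13 and of Tlr3 and Tlr8 overlapped. In Roquin IP Tlr4 (4.83 CPM per kb) came before Tlr1 (4.21), with overlapping ranges. In control IP Tlr1 (4.79 CPM per kb) came before Tlr7 (4.14), and Tlr9 (2.63) before Tlr4 (2.57), again with overlapping ranges. In these bulk libraries fewer cells with an mRNA and less of it per cell cannot be told apart.

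**Figure D1:**
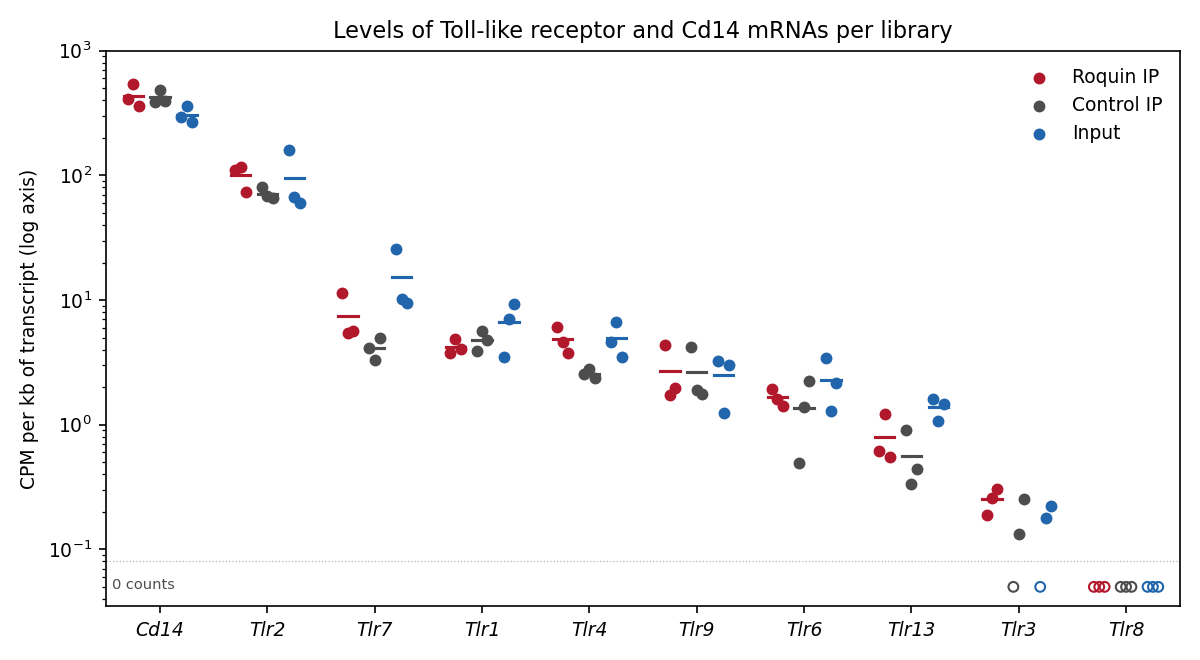
Levels of the 10 members in CPM per kb of transcript, on a log axis, with 1 point per library and a bar at each group's mean, for Roquin IP, control IP and input. Open points under the dotted line are libraries with 0 counts, and Cd14 stood above Tlr2 and Tlr2 above every other member in all 9 libraries.

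The low end of the order was held by Tlr3 and Tlr8. Tlr3, the receptor for double-stranded RNA, had 2, 9 and 14 counts in Roquin IP, 0, 3 and 13 counts in control IP and 0, 2 and 2 counts in input. It was too low for the test, and it also shares exonic bases with a gene annotated on the opposite strand, from which its reads could not be told apart if the counting ignored strand. Tlr8, an endosomal RNA receptor that neighbours Tlr7 on the X chromosome, had 0 counts in all 9 libraries. A count of 0 allows up to 3 counts, which is 0.257 to 1.49 CPM per library, so Tlr8 was not detectable at this depth. The annotated transcripts of Tlr7 and Tlr8 share no window of 50 bases. The transcripts of Tlr1 and Tlr6, which are neighbours on chromosome 5, share 454 such windows, or 15.3% of those of Tlr1 and 12.5% of those of Tlr6, so some of their reads cannot be assigned with certainty.

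Roquin IP was set against control IP first. Of the 10 members 8 passed the filter on low counts, and 0 of these 8 were called higher or lower by edgeR's quasi-likelihood test at a Benjamini-Hochberg adjusted p under 0.05. Over all 9567 genes tested, 360 were called higher (3.76%) and 0 lower (0%). At an unadjusted p under 0.05, 1 member was higher, Tlr4, beside 7.93% of all genes higher and 2.13% lower. DESeq2 also called 0 members, beside 4.96% of all genes higher and 0.0627% lower. A fit in edgeR with the replicate number as a block called 0 members too, beside 11 genes called lower among all 9567 tested. The share of all genes that this fit called higher is not given here. For the members, the adjusted p-values of the block fit were 0.150 for Tlr4, 0.263 for Tlr7 and 0.380 or more for the rest. The median log2 fold change was 0.35 over the 8 members and -0.12 over all tested genes. Of the 8 values 7 were above 0 with TMM scaling, but 1 with library size alone, a scaling under which the median of all genes was -0.96 and that of the members -0.53.

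Cd14 was the most abundant member and the one measured with the smallest error. It had 668, 889 and 596 CPM in Roquin IP, 633, 798 and 648 CPM in control IP, and 479, 588 and 444 CPM in input. The Roquin IP and control IP values interleave, and both sets lie above all 3 input values. As a log2 fold change, Roquin IP over control IP came to 0.05 (SE 0.27, 95% interval -0.52 to 0.62, edgeR adjusted p = 0.962). With library size alone it was -0.81 with an adjusted p of 0.0409, a scaling under which 38.6% of all genes were called lower. For scale, the 360 genes called higher had a median of 2.37 and a smallest value of 1.01 on the log2 scale, both above the upper end of the Cd14 interval.

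Tlr2, the receptor for bacterial lipopeptides, had 331, 355 and 221 CPM in Roquin IP, 243, 206 and 197 CPM in control IP, and 480.1, 203 and 182 CPM in input. Its lowest Roquin IP library lies within the control IP range, and 1 input library had more than double the level of the other 2. Against control IP the log2 fold change came to 0.49 (SE 0.36, 95% interval -0.28 to 1.26, adjusted p = 0.722). Its partners were lower. Tlr1 had 11.3, 14.6 and 12.3 CPM in Roquin IP, 11.9, 17.0 and 14.6 CPM in control IP, and 10.6, 21.3 and 28.2 CPM in input, and its log2 fold change against control IP was -0.18 (SE 0.39, adjusted p = 0.917). Tlr6 had 7.12, 5.93 and 5.22 CPM in Roquin IP, 1.82, 5.09 and 8.24 CPM in control IP, and 12.6, 4.74 and 7.92 CPM in input. The control IP values of Tlr6 enclose those of Roquin IP, and its log2 fold change was 0.20 (SE 0.57, adjusted p = 0.933).

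Tlr4 was the member whose groups lay furthest apart in Roquin IP against control IP. It had 24.7, 18.9 and 15.5 CPM in Roquin IP, 10.3, 11.4 and 9.70 CPM in control IP, and 18.7, 27.2 and 14.4 CPM in input. All 3 Roquin IP libraries were above all 3 control IP libraries, and the input values enclosed those of Roquin IP. Against control IP its log2 fold change was 0.90 (SE 0.36, 95% interval 0.14 to 1.67), a ratio of 1.87. In edgeR's test the p was 0.0241 before adjustment over all genes and 0.348 after it. With library size alone the log2 fold change was 0.05, with an adjusted p of 0.914. Of the tested genes, 756 (7.9%) had a higher log2 fold change than Tlr4.

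Tlr7 was the other member with all 3 Roquin IP libraries above all 3 control IP libraries, a pattern seen in 2 of the 8 tested members and in 10.7% of all tested genes. It had 44.4, 21.1 and 21.8 CPM in Roquin IP, 16.1, 12.9 and 19.4 CPM in control IP, and 101, 39.5 and 37.1 CPM in input. Replicate 1 was the highest library of Tlr7 in both Roquin IP and input, and it made the larger part of the Roquin IP spread. Against control IP its log2 fold change was 0.82 (SE 0.43, 95% interval -0.10 to 1.74, adjusted p = 0.591), and it was -0.04 with library size alone.

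The remaining endosomal receptors were low. Tlr9 had 15.1, 6.06 and 6.86 CPM in Roquin IP, 14.6, 6.65 and 6.18 CPM in control IP, and 11.4, 4.34 and 10.4 CPM in input. In all 3 groups replicate 1 of Tlr9 was the highest library, and the groups overlap throughout, with a log2 fold change against control IP of 0.01 (SE 0.54, adjusted p = 0.999). Tlr13 had 2.51, 4.92 and 2.22 CPM in Roquin IP, 3.65, 1.37 and 1.8 CPM in control IP, and 6.50, 4.34 and 5.94 CPM in input. These levels of Tlr13 rest on 6 to 39 counts per library, and the 95% interval of its log2 fold change over control IP, -0.81 to 1.94 around 0.57, allows anything between a lower level and a rise of the size seen in called genes.

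**Figure D2:**
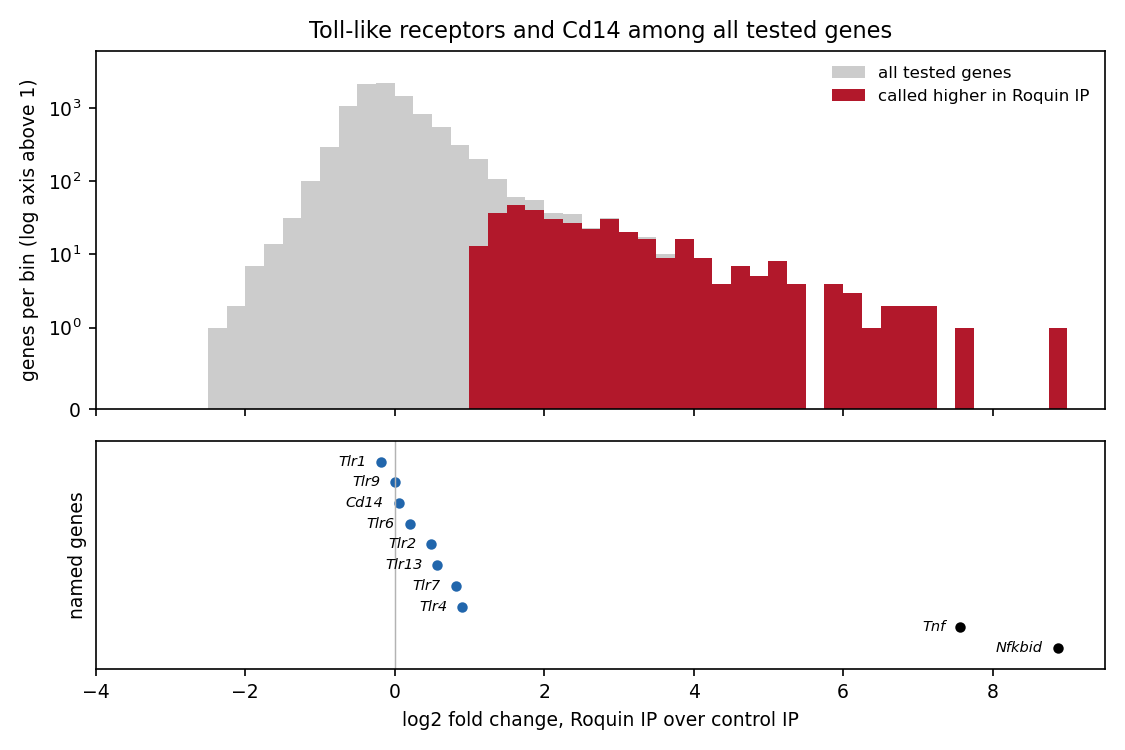
Log2 fold changes of Roquin IP over control IP. The upper panel counts all tested genes per bin of 0.25 on an axis that is logarithmic above 1, with genes called higher in red, and the lower panel places the 8 tested members (blue) and Tnf and Nfkbid (black), with the members between -0.18 and 0.90 and Tnf and Nfkbid at 7.57 and 8.88.

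The authors' deposited table placed the 8 tested members in the same order of size. Its ratios of Roquin IP to control IP, on a linear scale, were 2.00 for Tlr3, 1.91 for Tlr4, 1.83 for Tlr7, 1.43 for Tlr13, 1.42 for Tlr2, 1.23 for Tlr6, 1.05 for Cd14, 1.03 for Tlr9 and 0.89 for Tlr1. The p-value in the authors' deposited table was 1.000000 for each of these 9 genes, and Tlr8 had no ratio.

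Roquin IP was then set against input, with the same Roquin IP libraries. By edgeR 0 of 8 members were called higher, beside 5.45% of all tested genes, and 0 were called lower, beside 2.79%. At an unadjusted p under 0.05, 1 member was lower, Tlr7, beside 12.1% of all genes higher and 10.7% lower. DESeq2 called 0 members, beside 7.45% of all genes higher and 5.4% lower. With the replicate number as a block, 1 member was called lower, Tlr7, where the block called 9.99% of all genes higher and 8.04% lower. The median log2 fold change over the 8 members was -0.26, against -0.01 over all tested genes, and 3 of the 8 values were above 0 with TMM scaling and 0 with library size alone.

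Tlr7 had a log2 fold change of -1.05 in Roquin IP over input (SE 0.43, 95% interval -1.96 to -0.13, adjusted p = 0.157). With the replicate block the value was -0.99 with an adjusted p of 0.0377. The ratio of Roquin IP to input within replicates 1, 2 and 3 was 0.44, 0.534 and 0.588, below 1 in each. The unpaired ranges overlap because Roquin IP replicate 1, at 44.4 CPM, was above input replicates 2 and 3, at 39.5 and 37.1 CPM. Leaving out input replicate 1 gave -0.42 with an adjusted p of 0.586. With library size alone the value was -1.8 with an adjusted p of 0.00786, where the median of all genes was -0.76 and 27.8% of all genes were called lower.

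Cd14 had a log2 fold change of 0.51 in Roquin IP over input (SE 0.27, 95% interval -0.07 to 1.09, adjusted p = 0.279), and it was -0.27 with library size alone. It was the 1 tested member with all 3 Roquin IP libraries above all 3 input libraries, a pattern seen in 16.5% of all tested genes. The remaining values on the log2 scale were 0.07 for Tlr2, 0.06 for Tlr9, -0.05 for Tlr4, -0.48 for Tlr6, -0.64 for Tlr1 and -0.77 for Tlr13, with adjusted p-values of 0.365 to 0.967 in edgeR's test. Tlr1 was called lower with library size alone (-1.40, adjusted p = 0.0210) and under no other scaling tried.

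**Figure D3:**
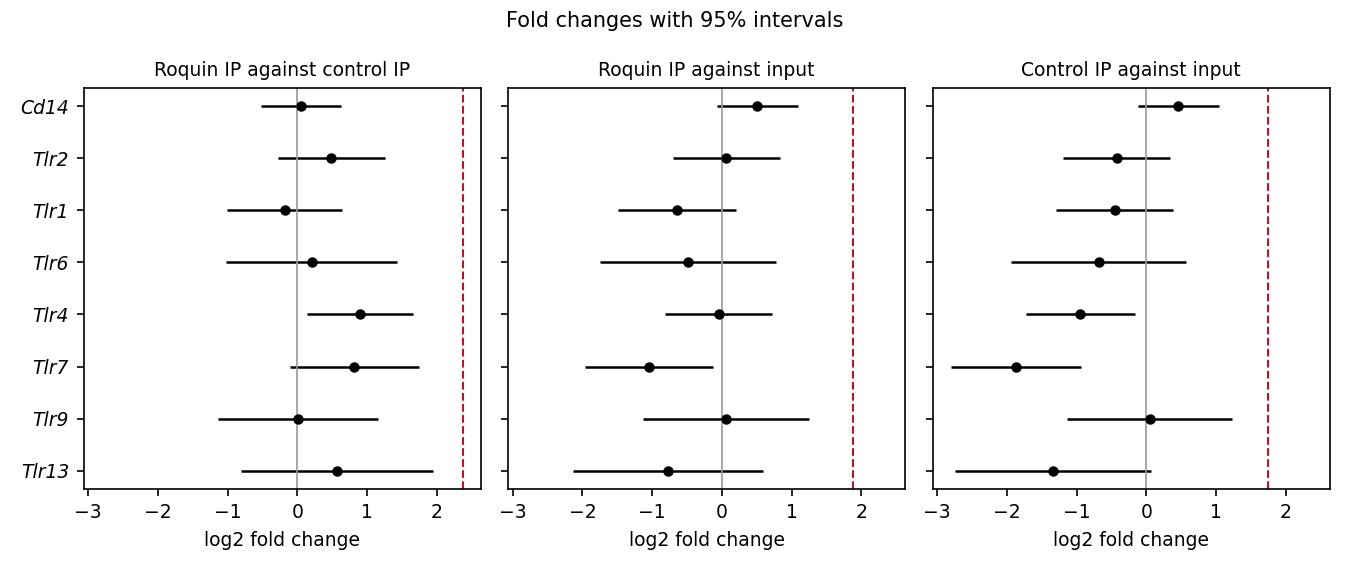
Log2 fold changes of the 8 tested members in the 3 comparisons, with points at the estimate and bars for the 95% interval of edgeR's fit. The red dashed line marks the median of the genes called higher in the same comparison, and every member's interval lies to its left.

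Control IP against input shows how the members behaved on beads without antibody, with input libraries that the previous comparison also used. By edgeR 0 of 8 members were called in either direction, beside 0.815% of all tested genes called higher and 0.303% called lower. At an unadjusted p under 0.05, 2 members were lower, Tlr4 and Tlr7, beside 10.8% of all genes higher and 9.53% lower. DESeq2 called 1 member lower, Tlr7, beside 4.15% of all genes higher and 3.95% lower. The fit with the replicate block also called Tlr7 lower, beside 6.65% of all genes higher and 5.78% lower, and so did the fit with no filter on low counts, beside 1.62% of all genes lower. The median log2 fold change was -0.57 over the 8 members and 0.02 over all tested genes, and with library size alone it was -0.45 over the members and 0.11 over all genes.

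Tlr7 stood closest to the threshold here. Its log2 fold change was -1.87 in control IP over input (SE 0.44, 95% interval -2.81 to -0.93, edgeR adjusted p = 0.0511), and 99.57% of the tested genes had a higher value. It was -1.69 with the replicate block (adjusted p = 0.00648), -1.90 in DESeq2 (adjusted p = 0.00216) and -1.24 without input replicate 1 (adjusted p = 0.153), and the adjusted p ranged from 0.0526 to 0.166 when 1 library was left out. All 3 control IP libraries were below all 3 input libraries. The ratio of control IP to input was 0.16, 0.327 and 0.522 within replicates 1, 2 and 3.

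Tlr4 and Tlr13 were also below input in all 3 control IP libraries, so 3 of 8 members showed this pattern, which 10.8% of all tested genes showed. For Tlr4 the log2 fold change in control IP over input was -0.95 (SE 0.36, 95% interval -1.73 to -0.17, adjusted p = 0.164). For Tlr13 it was -1.34 (SE 0.66, 95% interval -2.75 to 0.07, adjusted p = 0.266). Cd14 ran the other way, with all 3 control IP libraries above all 3 input libraries, as in 12.2% of all tested genes, and a log2 fold change of 0.46 (SE 0.27, 95% interval -0.12 to 1.03, adjusted p = 0.354). Over input, Cd14 came to 0.51 for Roquin IP and to 0.46 for control IP, and both values rest on the same input libraries. Tlr4 and Tlr7 were lower in control IP than in Roquin IP and input, and the control IP libraries are shared between those comparisons.

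**Figure D4:**
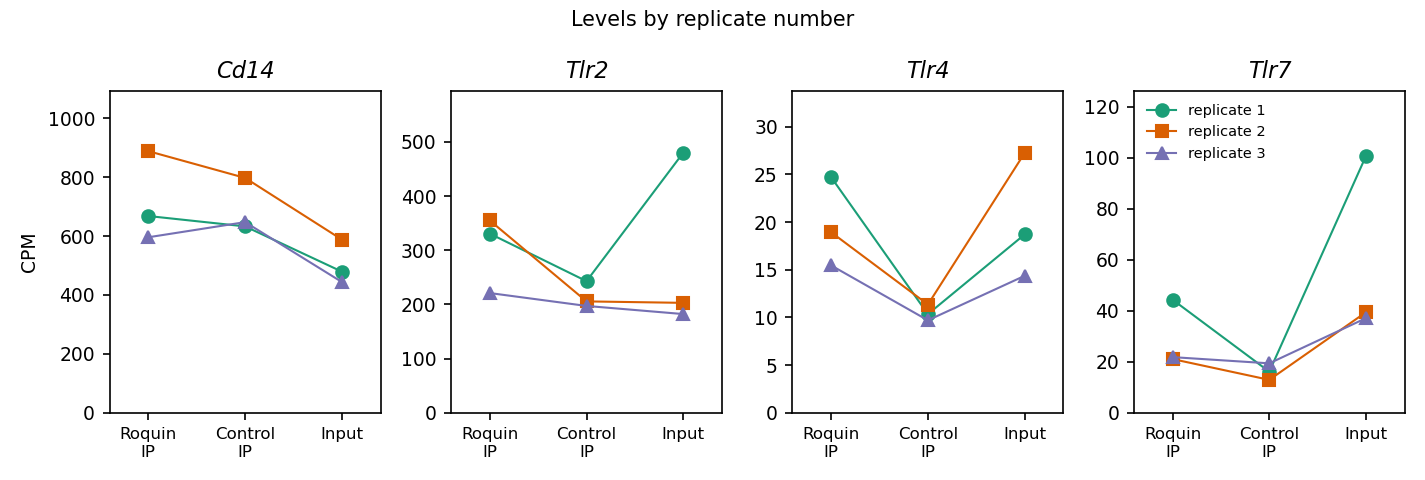
CPM of Cd14, Tlr2, Tlr4 and Tlr7 in Roquin IP, control IP and input, on linear axes from 0, with lines joining libraries that carry the same replicate number. Tlr4 and Tlr7 were lower in control IP than in the Roquin IP and input libraries of each replicate number, whereas the input was the lowest of the 3 for Cd14.

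The other genes of the pathway, a list of 36 made of receptors, co-receptors, trafficking factors, adaptors, kinases, ubiquitin ligases and negative regulators, had 28 members above the filter. By edgeR 0 of the 28 were called in Roquin IP against control IP, beside 3.76% of all genes higher. There 1 was higher at an unadjusted p under 0.05 (Traf3), beside 7.93% of all genes, and DESeq2 called 0, beside 4.96% of all genes higher. The replicate block called 1, Traf3, but the share of all genes that it called higher in this comparison is not given here. In the fit with no block, 6.73% of tested genes had a higher log2 fold change than Traf3. Their log2 fold changes ranged from -0.49 to 1.26 with a median of 0.07, against -0.12 over all tested genes. All 7 genes of receptor traffic and processing were above 0 with TMM scaling, from 0.07 to 0.72, and all 7 were below 0 with library size alone, from -0.81 to -0.19. None of them passed the test under either scaling. In Roquin IP against input 1 of 28 was called higher, Traf3, and 0 lower, beside 5.45% of all tested genes higher and 2.79% lower. In that comparison 2 of 28 were lower at an unadjusted p under 0.05, beside 10.7% of all genes, DESeq2 called 1 lower, beside 5.4%, and the replicate block called 3 lower, beside 8.04%. In control IP against input 0 of 28 were called, beside 0.815% of all genes higher and 0.303% lower. There 1 was higher and 4 lower at an unadjusted p under 0.05, beside 10.8% and 9.53% of all genes, DESeq2 called 3 lower, beside 3.95%, and the replicate block called 3 lower, beside 5.78%. The 3 genes lower with the block were Hsp90b1, Ly86 and Cd180 in both blocked comparisons, which share the input libraries. The authors' deposited table gave none of the 36 a predicted CDE.

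Ly96 and the related pair Cd180 and Ly86 did not reach the threshold in Roquin IP against control IP. For Cd180 and Ly86 the log2 fold changes there were 0.15 and 0.625, with adjusted p-values of 0.898 and 0.697 in edgeR's test. Ly96, which encodes MD-2, averaged 4.57 ± 1.13 CPM in Roquin IP, 1.75 ± 1.25 CPM in control IP and 3.05 ± 1.81 CPM in input (SD, n = 3), with a log2 fold change of 1.26 over control IP (SE 0.72, adjusted p = 0.639). Its counts were 1 to 42 per library. All 3 Roquin IP libraries of Ly96 were above all 3 control IP libraries, as in 10.7% of all tested genes. The ratio within replicates 1, 2 and 3 was 19.3, 1.49 and 1.69, and the first of these rests on 1 count in control IP. Cd180, a TLR4-related receptor, averaged 58.0 ± 11.2 CPM in Roquin IP, 52.4 ± 6.48 CPM in control IP and 102 ± 18.2 CPM in input. Ly86, which encodes the MD-1 partner of CD180, averaged 17.6 ± 4.65 CPM in Roquin IP, 11.3 ± 4.79 CPM in control IP and 40.1 ± 18.6 CPM in input. With the replicate block, log2 fold changes over input were -0.81 for Cd180 (adjusted p = 0.0283) and -1.16 for Ly86 (adjusted p = 0.0223) in Roquin IP. The corresponding values in control IP were -0.97 for Cd180 (adjusted p = 0.0203) and -1.78 for Ly86 (adjusted p = 0.00624). In the edgeR fit that had no block these 4 values had adjusted p-values of 0.0526 to 0.102. DESeq2, also with no block, called Cd180 lower in Roquin IP over input (-0.81, adjusted p = 0.0299), and in control IP over input it called Cd180 (-0.99, adjusted p = 0.0104) and Ly86 (-1.85, adjusted p = 0.00246) lower. With no filter on low counts, edgeR called Ly86 lower in control IP over input (-1.78, adjusted p = 0.00225).

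Unc93b1 and Hsp90b1 serve the traffic and folding of the receptors. Unc93b1, which carries endosomal TLRs out of the endoplasmic reticulum, averaged 60.9 ± 20.3 CPM in Roquin IP, 47.8 ± 13.5 CPM in control IP and 49.5 ± 11.1 CPM in input, with a log2 fold change of 0.35 over control IP (adjusted p = 0.789). Hsp90b1, which encodes the chaperone gp96 needed to fold most TLRs, had log2 fold changes of 0.72 in Roquin IP over control IP (SE 0.48, adjusted p = 0.699), -1.03 in Roquin IP over input (SE 0.49, adjusted p = 0.225) and -1.75 in control IP over input (SE 0.50, adjusted p = 0.0801). With the replicate block the values over input were -1.15 in Roquin IP (adjusted p = 0.0148) and -1.95 in control IP (adjusted p = 0.0034). Of the 7 genes of receptor traffic and processing, DESeq2 called 1 lower in control IP over input, beside 3.95% of all genes, and 0 in Roquin IP over input. With no filter on low counts, 1 of the 7 was called lower over input in control IP, beside 1.62% of all genes. In Roquin IP over input 1 was also called lower, beside 416 of all genes. Which gene this was is not given here.

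Adaptor mRNAs were spread around 0 in Roquin IP against control IP. Myd88, the adaptor of most TLRs, averaged 43.8 ± 26.4 CPM in Roquin IP, 49.4 ± 31.8 CPM in control IP and 38.9 ± 18.2 CPM in input. Tirap, which bridges MyD88 to TLR2 and TLR4, averaged 49.2 ± 15.9, 46.6 ± 3.19 and 45.3 ± 9.70 CPM in Roquin IP, control IP and input. Ticam1, the TRIF adaptor of TLR3 and TLR4, averaged 72.3 ± 12.9 CPM in Roquin IP, 95.2 ± 31.4 CPM in control IP and 65.5 ± 4.74 CPM in input, and Ticam2, the TRAM adaptor of TLR4, averaged 11.7 ± 3.85, 12.9 ± 3.13 and 20.7 ± 10.5 CPM. Their log2 fold changes over control IP were between -0.40 and 0.08, with adjusted p-values of 0.728 to 0.950 in edgeR's test.

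Traf3, a ubiquitin ligase that links TLRs to interferon induction, was the 1 pathway gene called by the edgeR fit that had no block. It had 127, 110 and 221 CPM in Roquin IP, 66.0, 74.9 and 84.5 CPM in control IP, and 67.9, 32.4 and 66.3 CPM in input, and the Roquin IP libraries were above all others. The log2 fold change in Roquin IP over input was 1.46 (SE 0.35, edgeR adjusted p = 0.0197), and Traf3 rose in that comparison. The call was lost without Roquin IP replicate 3 (1.09, adjusted p = 0.114), without input replicate 2 (1.19, adjusted p = 0.0825) and with library size alone (0.78, adjusted p = 0.139). Over control IP it was 1.02 (SE 0.34, adjusted p = 0.184), and 0.95 with the replicate block (adjusted p = 0.0396). The authors' deposited table gave Traf3 a ratio of 2.06 over control IP and a p-value of 0.917.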

How the data were processed

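The deposited table held, per the file headers, raw read counts per gene symbol for 9 libraries, the authors' ratio of Roquin IP to control IP, the authors' p-value and a text class for a predicted CDE. The header of the deposited ratio says log2, but its values were linear. The submitters' processing notes name BWA, CASAVA 1.8.2 and DESeq 1.8.3. Genome build, gene models and use of strand: not given in the sources used here. A further 7480 lines held no symbol and no value.

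The counts went into edgeR 4.0.16 (quasi-likelihood test, TMM factors, group as the only term, 9 libraries in 1 fit) in R 4.3.3, checked on simulated counts. That check was passed on large fold changes, simulated with a common spread and no pairing. Recovery at fold changes as small as those of the members is not given here. filterByExpr with a minimum count of 10 kept 9567 genes, and p-values were adjusted over all of them. Calls used an adjusted p under 0.05. DESeq2 1.42.0 was an alternative. Floors and intervals cover counting or model error only. Same-numbered libraries deviated together (r = 0.157 to 0.612 over 9 pairs, and -0.463 to -0.009 over 18 other pairs). The deviations were taken from group means, which ties both sets of r together, so the negative values are not separate evidence of pairing. The main fit did not pair the samples. Among the fits, only the replicate block, an alternative, used the numbers, which were taken from the labels. No 2 replicates of a group agreed within counting noise. Gene lengths and 3′ UTRs came from GENCODE vM21, with genes matched by symbol. All 10 members and the direct partners were named whatever their values, together with pathway genes past the threshold, and Tnf and Nfkbid were chosen after their values were seen. A few genes of the marker and likeness lists are not reported here. The members and lists were chosen with earlier results of these data known.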

Additional observations from a re-analysis of the deposited data

How the results depend on the processing

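Each comparison was refitted with DESeq2, RLE factors, library size alone, no low-count filter, Lars2 left out of the scaling, only the 6 libraries compared, the replicate block and 1 library left out at a time, all set out beforehand. Leaving out 1 library called 0 members in every comparison. In Roquin IP against control IP, genes called lower numbered 6 in DESeq2, 3694 with library size alone, 21 with no filter and 11 with the replicate block, members called lower numbered 1 (Cd14) with library size alone, and pathway genes called numbered 8 lower with library size alone and 1 higher with the block. Library size alone reversed Tlr2 (-0.37), Tlr6 (-0.69), Tlr7 (-0.036), Tlr9 (-0.79), Tlr13 (-0.29), Cd14 (-0.81), Unc93b1 (-0.51), Cd180 (-0.69), Ly86 (-0.26) and Tirap (-0.73) on the log2 scale, and no filter reversed Tlr9 (-4.4e-05). In Roquin IP against input, genes called lower numbered 517 in DESeq2, 416 with no filter, 2659 with library size alone (259 higher) and 769 with the block (956 higher). Members called lower numbered 2 with library size alone and 1 with the block, and pathway genes lower 1 in DESeq2, 6 with library size alone (0 higher), 1 with no filter and 3 with the block. Library size alone reversed Tlr2 (-0.71), Tlr9 (-0.68), Cd14 (-0.27), Ly96 (-0.22), Unc93b1 (-0.51), Myd88 (-0.48), Tirap (-0.59) and Ticam1 (-0.63). In control IP against input, genes called higher and lower numbered 397 and 378 in DESeq2, 335 and 229 with no filter, 9 and 2 with the 6 libraries alone and 636 and 553 with the block, and 10 were lower with library size alone. There, members called lower numbered 1 in DESeq2, with no filter and with the block, pathway genes lower 3, 2 and 3, and Unc93b1 reversed with library size alone (0.0023). With 1 library left out, genes called ranged from 276 to 374 higher and 0 to 3 lower in Roquin IP against control IP, from 298 to 675 and 32 to 461 in Roquin IP against input (pathway genes higher 0 to 1), and from 0 to 191 and 0 to 91 in control IP against input (pathway genes lower 0 to 1). Log2 fold changes that changed sign ranged, in Roquin IP against control IP, from -0.13 to 0.17 for Cd14, -0.17 to 0.76 for Tlr6, -0.48 to 0.48 for Tlr9, -0.80 to 0.48 for Myd88, -0.42 to 0.10 for Ticam2 and -0.097 to 0.33 for Tirap. In Roquin IP against input they ranged from -0.16 to 0.65 for Tlr2, -0.23 to 0.24 for Tlr4, -0.42 to 0.30 for Tlr9, -0.44 to 0.63 for Myd88 and -0.056 to 0.37 for Tirap, and in control IP against input from -0.70 to 0.16 for Tlr2, -0.44 to 0.30 for Tlr9, -0.30 to 0.76 for Myd88, -0.11 to 0.15 for Tirap and -0.27 to 0.15 for Unc93b1. The replicate block changed no other call among the members and named pathway genes than those given. The causes were not tested. Library size alone places all reads of a library, those of Tnf and Lars2 included, in the divisor of every gene. Per kb of all annotated exons, Tlr4 averaged 3.55 CPM in Roquin IP and 1.88 CPM in control IP. Its longest transcript has 4077 bases and all its annotated exons 5556 bases. Its place before Tlr1 in Roquin IP and its separation from Tlr9 in input were read for the longest transcript alone.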

Other observations

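Over the 9 libraries, the genes whose levels ran most like those of Cd14, by Pearson's r of log2(CPM + 1), were Itm2c (r = 0.984), Edem1 (r = 0.968) and Ing2 (r = 0.946). Among the genes most like Tlr2 were Arih1 (r = 0.968) and Kcnj2 (r = 0.918). Kcnj2 lay between 1.98 and 9.76 CPM and Ing2 between 4.46 and 13.8 CPM, so their r values rest on low levels. Itm2c lay between 14.4 and 40.4 CPM while Cd14 lay between 444 and 889 CPM, and Arih1 lay between 159 and 229 CPM while Tlr2 lay between 182 and 480.1 CPM. These values were picked as among the highest of all tested genes, over 9 points that share libraries, depth and scaling, and are given as a description.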
